A study of Mus musculus with 6 samples.

Results

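The 31 genes described here are the regulators and classic transcriptional targets of the tumour suppressor p53, chosen by name and read from a table of 22274 genes measured in mouse testes. Of these, 29 were found by symbol and the other 2, Trp53 and Trp73, by Ensembl ID, and 30 passed the filter on low counts. The tissue was whole testis labelled day 9, sequenced as messenger RNA, with 3 control libraries and 3 libraries from mice carrying a germ-cell deletion of Dcaf2, made by crossing a floxed Dcaf2 allele to Stra8-Cre. The controls are labelled only as control, and their alleles are not stated in the sources used. Stra8-Cre is a Cre recombinase driven by a promoter active in spermatogonia, so the deletion is not expected in the somatic cells of the same testes. DCAF2 is the subunit that brings substrates to the CRL4 ubiquitin ligase, and the study asked whether it is needed for spermatogenesis. The labels do not state whether the numbered libraries are different mice. The p-values therefore reflect only how far these libraries scatter, some of which may be technical, and the event from which day 9 is counted is not stated.

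p53 is a transcription factor that is kept scarce by the ubiquitin ligase MDM2 and its partner MDM4, and that is stabilised when DNA is damaged or replication fails. Once stable, it binds sites near its target genes and raises transcripts for cell-cycle arrest, cell death, DNA repair and for its own inhibitors, MDM2 among them. Because its activity is set mostly through the protein, the transcript of Trp53 need not move when the pathway does. In testis, germ cells with unrepaired DNA damage can be removed by p53-dependent death, and the pathway has also been studied in spermatogonia.

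A p53 response element is a pair of decamers, each a consensus with a fixed C and G core. Promoters from 250 bases before to 50 bases after each annotated start site (RefSeq, GRCm38.p6) were present for 23 of the 31 genes, in 34 promoter entries. No entry was held for Zmat3, Pmaip1, Perp, Trp53inp1, Tnfrsf10b, Rrm2b, Xpc and Ddb2. A perfect p53 decamer, searched on both strands, stood in a promoter of 10 of the 23 genes and in 11 of the 34 entries, against 8.36% of all 32851 promoter entries of the same length and 9.55% of genes. A pair of decamers with at most 2 mismatches in all, the core kept, and a spacer of at most 13 bases stood in 4 of the 34 entries and in 4.09% of all entries. Pairs and single decamers can overlap. These matches describe the letters in the windows and do not show binding. Apart from Ccng1, the windows below are shown because they belong to genes whose transcripts the results turn on. Ccng1 is shown because it holds the pair with the fewest mismatches among the 23 genes with a promoter entry. Capitals mark the decamers, and each runs 5′ to 3′ on the strand of its gene.

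Bax: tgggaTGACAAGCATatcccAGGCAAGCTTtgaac
Ccng1: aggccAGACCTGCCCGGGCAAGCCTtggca
Sesn1: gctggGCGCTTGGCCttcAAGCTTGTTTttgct
Aen: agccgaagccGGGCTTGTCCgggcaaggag
Ddit4l: caactcccagGGGCTTGCCTgggcccctgc
Polk: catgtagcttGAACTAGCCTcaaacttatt
Mdm2: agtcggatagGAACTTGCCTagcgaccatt
Ppm1d: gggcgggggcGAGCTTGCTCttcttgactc

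In GRCm38.p6 the Bax window is chr7:45467085-45467119 on the minus strand, and its pair starts 216 bases before the start site, with a spacer of 5 and 2 mismatches. The Ccng1 window is chr11:40755457-40755486 on the minus strand, with a pair that starts 195 bases before the start site, has no spacer and carries 1 mismatch. That of Sesn1 is chr10:41887248-41887280 on the plus strand, before the downstream start site, with a spacer of 3 and 2 mismatches. The Aen decamer lies in chr7:78895927-78895956 on the plus strand, 121 bases before the downstream start site. Those of Ddit4l (chr3:137623572-137623601, plus strand) and Ppm1d (chr11:85311112-85311141, plus strand) start 90 and 132 bases before the start site. Those of Polk (chr13:96519399-96519428, minus strand) and Mdm2 (chr10:117710925-117710954, minus strand) start 231 and 186 bases before the start site, for Polk the downstream one. The other promoter entry of Polk held no decamer. Bax and Aen were lower in the knockouts, Sesn1, Ddit4l and Polk were higher, and Mdm2, Ppm1d and Ccng1 did not pass the test. The genes shown, picked partly for their results, thus stood on both sides. Trp53 and Ei24 also held a decamer and did not pass (log2 fold change -0.01 and -0.04). Neither promoter entry of Mdm4 held a decamer.

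Library totals ran from 15407007 to 18372964 counts. Germ-cell transcripts were scarcer in the knockouts, where the summed level of 18 pan-germ-cell genes was 718 to 900 CPM (counts scaled to library size), against 1776 to 2554 CPM in controls, and all 18 fell. Sertoli cell genes summed to 8546 to 9801 CPM in knockouts and 6162 to 8552 CPM in controls (9 of 17 rose), Leydig genes to 1341 to 1380 against 678 to 1203 CPM (3 of 9 tested rose), and stromal genes to 7818 to 8028 against 4949 to 6175 CPM (5 of 9 rose). Endothelial genes summed to 292 to 315 against 209 to 239 CPM and macrophage genes to 156 to 202 against 110 to 148 CPM. Each marker had a count in at least 1 library. Control library 1 stood apart from the other controls, with the lowest germ-cell sum (1776 against 2441 and 2554 CPM) and the highest Leydig sum (1203 against 678 and 688 CPM). In whole testis, fewer cells of a type and less RNA per cell cannot be told apart. The part of cell makeup in the differences below was not tested. Transcripts of the deleted gene itself, listed as Dtl, were at 42.6, 50.3 and 77.4 CPM in controls and 41.7, 43.8 and 51.5 CPM in knockouts, with overlapping groups (log2 fold change -0.31, edgeR adjusted p = 0.281). A whole-gene count also holds reads from outside the floxed part, so it is a weak check of the labels.

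The p53 pathway genes did not move together in the knockout testes. By edgeR's quasi-likelihood test with Benjamini-Hochberg adjustment over all tested genes, 9 of the 30 tested genes passed the threshold of 0.05, which is 30% of them, beside 25% of all 14424 tested genes. Higher in the knockouts were 5 (Mdm4, Sesn1, Zmat3, Ddit4l and Polk), where 11.1% of all genes were higher, and lower were 4 (Aen, Xpc, Bax and Ddb2), where 13.9% of all genes were lower. These shares lie near those of all genes. The differences were small: log2 fold changes of the 9 ran from -0.58 to 0.51, or from 1.496-fold lower to 1.42-fold higher. The median over the 30 genes was 0.001 on the log2 scale, beside 0.028 over all genes, with 15 genes above 0 and 15 below. The control and knockout libraries did not overlap for 15 of the 30, 8 higher and 7 lower, beside 44.6% of all genes (22.5% higher and 22.1% lower).

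**Figure D1:**
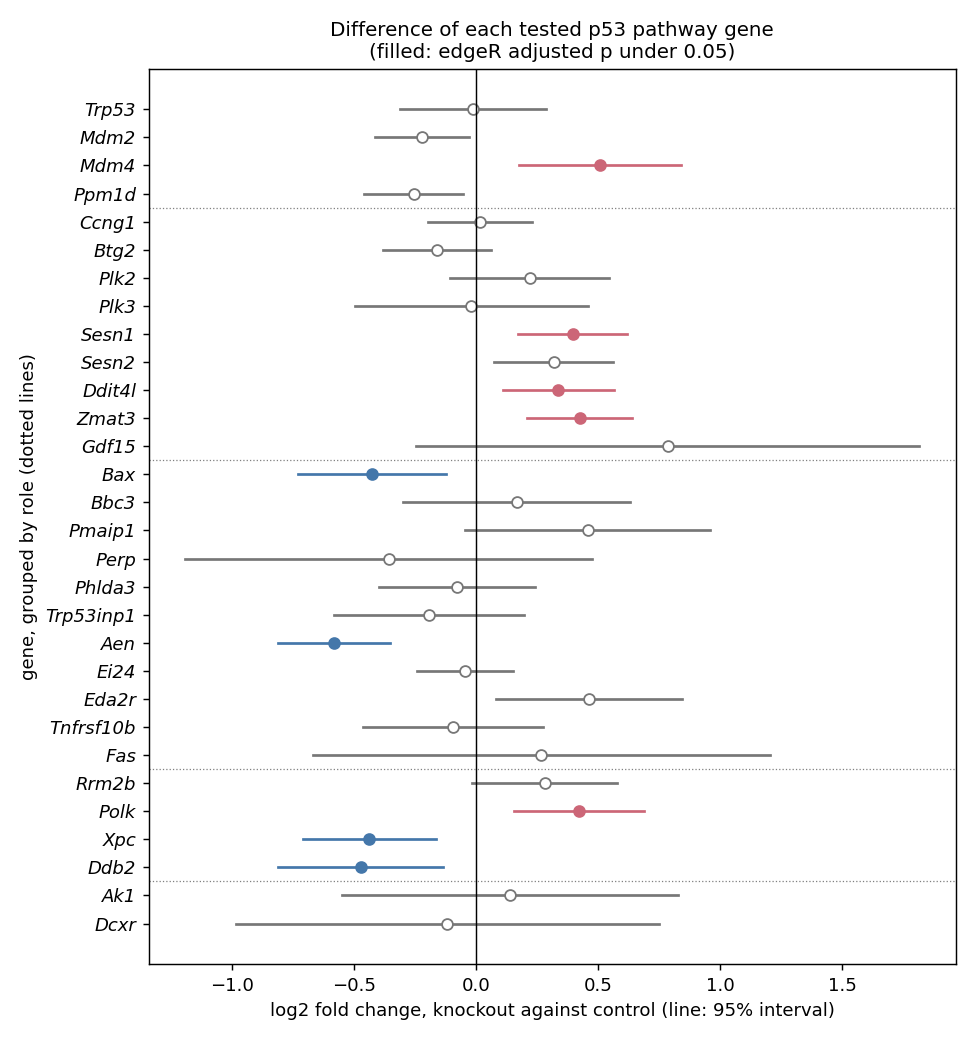
Log2 fold change of each of the 30 tested p53 pathway genes, knockout against control (x axis), grouped by role, with lines for 95% intervals. Filled points passed the edgeR threshold: 5 genes were higher, up to 0.51 for Mdm4, and 4 were lower, down to -0.58 for Aen.

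**Figure D2:**
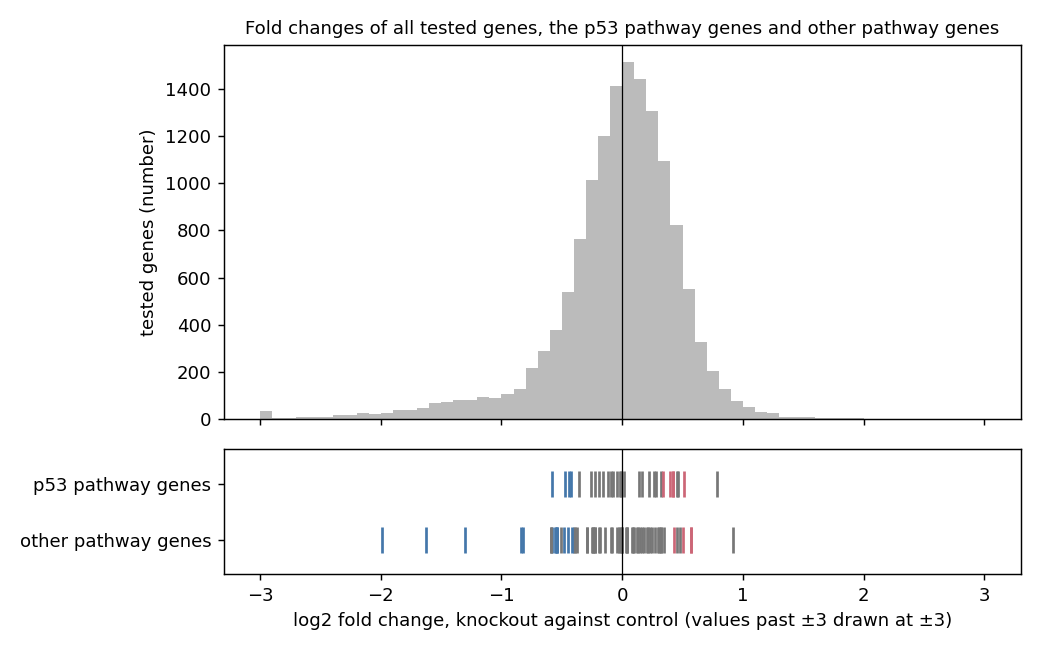
The upper panel is a histogram of log2 fold changes, knockout against control, over all 14424 tested genes, and the lower panel marks each p53 pathway gene and each other gene of the pathway (red higher, blue lower, grey not past the threshold). The 30 p53 pathway genes lie between -0.58 and 0.78, within the central mass of the histogram.

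Transcript levels of the 31 genes per length, in the deposited FPKM, spanned a wide range in controls, from 0.04 for Trp73 to 54.3 ± 10.8 for Trp53 (mean ± SD, n = 3 each). After Trp53 came Ei24 (48.1 ± 3.26 FPKM) and Bax (43.6 ± 8.22 FPKM), a trio whose levels overlapped between libraries. Mdm4 (29.8 ± 8.40 FPKM) and Mdm2 (28.3 ± 0.982 FPKM) followed and did not differ beyond their spread. The death-receptor gene Fas (1.07 ± 0.442 FPKM), the secreted stress factor gene Gdf15 (1.08 ± 0.580 FPKM) and the BH3-only gene Bbc3 (1.66 ± 0.0416 FPKM) were among the lowest. The p53 family gene Trp73 had 1, 3 and 5 counts in controls and 2, 7 and 4 in knockouts, too few to test.

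**Figure D3:**
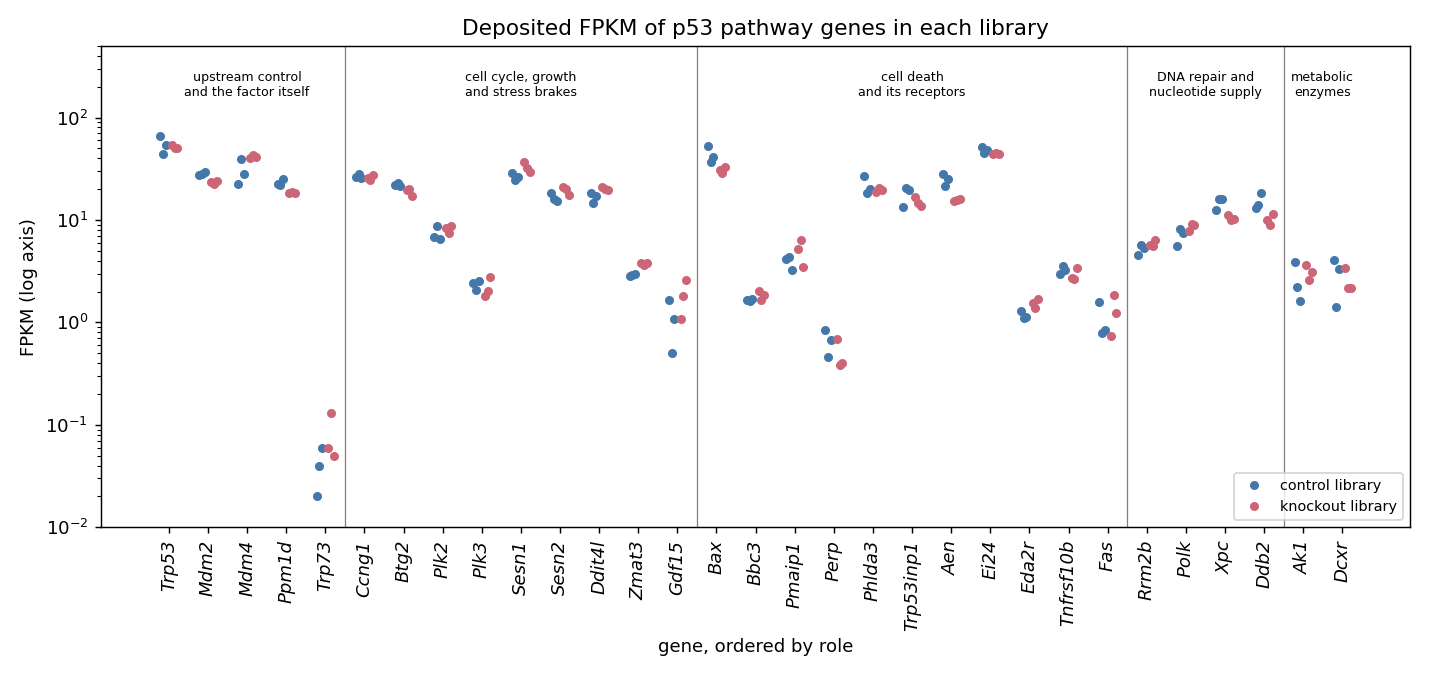
Deposited FPKM (log axis) of the 31 genes in each of the 3 control and 3 knockout libraries, ordered by role. In controls Trp53, Ei24 and Bax have the highest means, in knockouts Mdm4 (41.5) lies above Bax (30.8), and Trp73 reaches at most 0.13 FPKM.

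Among the regulators, Mdm4 rose in the knockouts, while Trp53, Mdm2 and Ppm1d did not pass the test. Trp53 was at 113, 78.1 and 91.8 CPM in controls and 96.6, 92.7 and 90.8 CPM in knockouts. The knockout values lay inside the range of the controls, and the log2 fold change was -0.01 (95% interval -0.31 to 0.28, edgeR adjusted p = 0.950). Without control library 1 the difference was 0.11, on the other side of 0. Mdm4, whose product binds p53 and blunts its activity, was at 151, 231 and 179 CPM in controls and 260, 279 and 258 CPM in knockouts. Every knockout library was above every control, and the controls were more spread out. Mdm4 rose 1.42-fold (log2 fold change 0.51 with SE 0.146, edgeR adjusted p = 0.0342). It did not pass without control library 3 or without any 1 knockout library (0.47 to 0.53, edgeR adjusted p = 0.0867 to 0.123). Mdm2, encoding the ligase that degrades p53 and itself a p53 target, was at 82.5, 86.8 and 88.1 CPM in controls and 74.4, 70.9 and 75.5 CPM in knockouts. Each knockout library was below each control, yet the log2 fold change of -0.22 did not pass (95% interval -0.41 to -0.03, edgeR adjusted p = 0.0876). Ppm1d encodes a phosphatase that shuts the damage response down, and is also a p53 target. It was at 63.5, 63.7 and 70.9 CPM in controls and 54.6, 56.7 and 54.7 CPM in knockouts, again without overlap and below the controls (log2 fold change -0.26, edgeR adjusted p = 0.0656). Without control library 1, Mdm2 and Ppm1d passed as lower (-0.27 and -0.31, edgeR adjusted p = 0.0172 for both), as they did with total-count scaling (-0.29 and -0.32, edgeR adjusted p = 0.0387 and 0.0322). Genes at large moved down too with total-count scaling. The median of all genes went from 0.028 to -0.038, and the number of all genes called lower from 2008 to 2424. Without control library 1, 2863 of all genes were lower.

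The ratio of Mdm4 to Mdm2 within a library does not depend on how libraries are scaled. It still carries the trend on gene length described below. With that trend removed, the log2 fold change went from 0.51 to 0.29 for Mdm4 and from -0.22 to -0.25 for Mdm2. This ratio was chosen after the values were seen. In FPKM it was 0.817, 1.39 and 0.956 in controls and 1.699, 1.94 and 1.72 in knockouts, so Mdm4 exceeded Mdm2 per length in every knockout library and in 1 of the controls. The count ratio was higher in knockouts by 0.75 on the log2 scale (1.10 ± 0.279 in controls and 1.85 ± 0.111 in knockouts, mean ± SD, n = 3 each; exact two-sided permutation p = 0.1, the smallest that 3 against 3 libraries can give). Every knockout library was already above every control for Mdm4 and below every control for Mdm2. The ratio therefore had to separate the groups, so this p was fixed by the choice of ratio and tests nothing further.

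Of the 9 genes that restrain the cell cycle and growth or answer stress, 3 rose and 0 fell by edgeR and by DESeq2, beside 11.1% of all genes higher and 13.9% lower. In all, 33.3% of the 9 were called, beside 25% of all genes. Of the 9, 4 had an unadjusted p under 0.05, as did 5636 of all 14424 genes, a like share over both directions. All 4 were higher, and the share of all genes that were higher at this unadjusted threshold was not counted. Their median log2 fold change was 0.32. Sesn1 encodes a sestrin, a stress protein that dampens mTORC1 signalling. It was at 77.8, 71.5 and 72.5 CPM in controls and 106, 97.7 and 88.1 CPM in knockouts, all knockouts above all controls, and rose 1.32-fold. Its log2 fold change was 0.40 with an SE of 0.0994 (edgeR adjusted p = 0.0209), and it did not pass without control library 3 or knockout library 1 or 2 (0.33 to 0.39, edgeR adjusted p = 0.0807 to 0.102). Its relative Sesn2 was at 61.2, 55.9 and 51.6 CPM in controls and 74.9, 72.5 and 62.8 CPM in knockouts. The groups did not overlap, but Sesn2 stayed short of the threshold (log2 fold change 0.32, edgeR adjusted p = 0.0584; 0.36 and 0.0168 without control library 1). Ddit4l, another brake on mTORC1, was at 46.6, 38.3 and 43.2 CPM in controls and 53.9, 56.1 and 52.0 CPM in knockouts, again without overlap. Ddit4l rose 1.26-fold, by 0.34 on the log2 scale (SE 0.1002, edgeR adjusted p = 0.0379). It passed in 1 of the 6 fits that left out a library, that without control library 1 (edgeR adjusted p = 0.0681 to 0.15 in the others), and missed with upper-quartile or total-count scaling (0.0742 and 0.0905).

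Zmat3, an RNA-binding protein gene downstream of p53, had the tightest replicates of the genes that passed. Its values were 21.4, 22.5 and 22.2 CPM in controls and 29.9, 29.0 and 29.9 CPM in knockouts. Zmat3 rose 1.34-fold (log2 fold change 0.42 with SE 0.0953, edgeR adjusted p = 0.0138), and just missed without control library 3 or any 1 knockout library (edgeR adjusted p = 0.0509 to 0.061). Zmat3 is also the longest of the 31 transcripts, at 7.79 kb as the deposited counts and FPKM give it. Over all genes, the median log2 fold change moved with length, from -0.18 in the shortest 1443 genes to 0.27 in the longest 1443. With that trend removed, Zmat3 was at 0.12 and no longer passed (edgeR adjusted p = 0.516). The trend also bears on Mdm4 (6.32 kb), which moved from 0.51 to 0.29 and stayed past the threshold, and on Bax (0.913 kb), which moved from -0.43 to -0.24 and did not (adjusted p = 0.0552). Ddb2 was also short of the threshold then (-0.43, adjusted p = 0.0556), while Mdm2, Ppm1d and Trp53inp1 passed as lower (-0.25, -0.27 and -0.37). More genes were called at large with the trend removed, 33.7% of all genes beside 25% before, and 2839 were lower beside 2008.

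The other genes of this kind had overlapping groups, except Btg2. Ccng1, which encodes cyclin G1 and carries the closest match to a p53 site shown above, was at 89.9, 99.1 and 87.1 CPM in controls and 91.8, 88.6 and 98.8 CPM in knockouts (log2 fold change 0.02, 95% interval -0.20 to 0.23, edgeR adjusted p = 0.916). With total-count scaling it was -0.05. Btg2, an antiproliferative gene, was at 58.0, 62.4 and 56.5 CPM in controls and 54.1, 56.5 and 47.8 CPM in knockouts (log2 fold change -0.16, edgeR adjusted p = 0.259). The polo-like kinase genes Plk2 and Plk3 were at 0.22 and -0.02 (edgeR adjusted p = 0.287 and 0.956). Gdf15 had the largest difference of the 30, 0.78, on the fewest reads of this role. It was at 2.32, 0.725 and 1.56 CPM in controls and 1.496, 2.64 and 3.85 CPM in knockouts, with overlap and a 95% interval of -0.25 to 1.81 (edgeR adjusted p = 0.232).

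Of the 11 genes of cell death and its receptors, 2 fell and 0 rose by edgeR and by DESeq2, beside 13.9% of all genes lower and 11.1% higher. Of the 11, 3 had an unadjusted p under 0.05 (Aen, Bax and, higher, Eda2r), a smaller share than the 5636 of all 14424 genes. With 18.2% called beside 25% of all genes, this role did not hold more calls than genes at large. Their median log2 fold change was -0.08. Aen, an exonuclease gene that takes part in p53-driven death, was at 59.5, 48.3 and 54.5 CPM in controls and 34.9, 36.6 and 36.9 CPM in knockouts. The groups were well apart, and Aen fell 1.496-fold (log2 fold change -0.58 with SE 0.102, edgeR adjusted p = 0.00521), the smallest adjusted p of the 30 genes. Bax, the effector that opens the mitochondrial outer membrane, was at 46.3, 33.6 and 36.3 CPM in controls and 28.7, 26.9 and 30.9 CPM in knockouts. All knockouts were below all controls, with control library 1 the highest, and Bax fell 1.34-fold (log2 fold change -0.43 with SE 0.133, edgeR adjusted p = 0.0453). It did not pass without control library 3 or any 1 knockout library (edgeR adjusted p = 0.0887 to 0.166), nor by limma-voom (0.0551). The BH3-only genes, whose products trigger BAX, had higher means without passing. Bbc3, which encodes PUMA, was at 2.90, 2.96 and 3.005 CPM in controls and 3.38, 3.11 and 3.45 CPM in knockouts, from only 50 to 55 counts per library (log2 fold change 0.17, 95% interval -0.30 to 0.63, edgeR adjusted p = 0.587). Pmaip1, which encodes NOXA, was at 10.9, 11.2 and 8.54 CPM in controls and 14.4, 17.9 and 9.70 CPM in knockouts, with overlap through knockout library 3 (log2 fold change 0.46, edgeR adjusted p = 0.161).

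The receptor genes had low levels and did not pass. Eda2r, a receptor of the TNF receptor family, was at 5.96, 5.24 and 5.23 CPM in controls and 7.54, 6.81 and 8.30 CPM in knockouts, without overlap (log2 fold change 0.46, edgeR adjusted p = 0.0743). Tnfrsf10b, the receptor of TRAIL, was at -0.09 and Fas at 0.27 (edgeR adjusted p = 0.704 and 0.668), and both overlapped. Perp, a membrane protein gene of p53-driven death, had only 12 to 30 counts per library (log2 fold change -0.36, edgeR adjusted p = 0.508). Ei24, an endoplasmic reticulum protein gene, was the most abundant of this role and the most even, at 110, 99.2 and 103 CPM in controls and 98.9, 103 and 100 CPM in knockouts (log2 fold change -0.04, 95% interval -0.24 to 0.15). Phlda3, an inhibitor of AKT, was at -0.08, and Trp53inp1, a stress-induced partner of p53, at -0.19 (edgeR adjusted p = 0.720 and 0.441). Trp53inp1 was at 69.4, 112 and 104 CPM in controls, and without control library 1, the lowest, it passed as lower (-0.40, edgeR adjusted p = 0.0107).

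**Figure D4:**
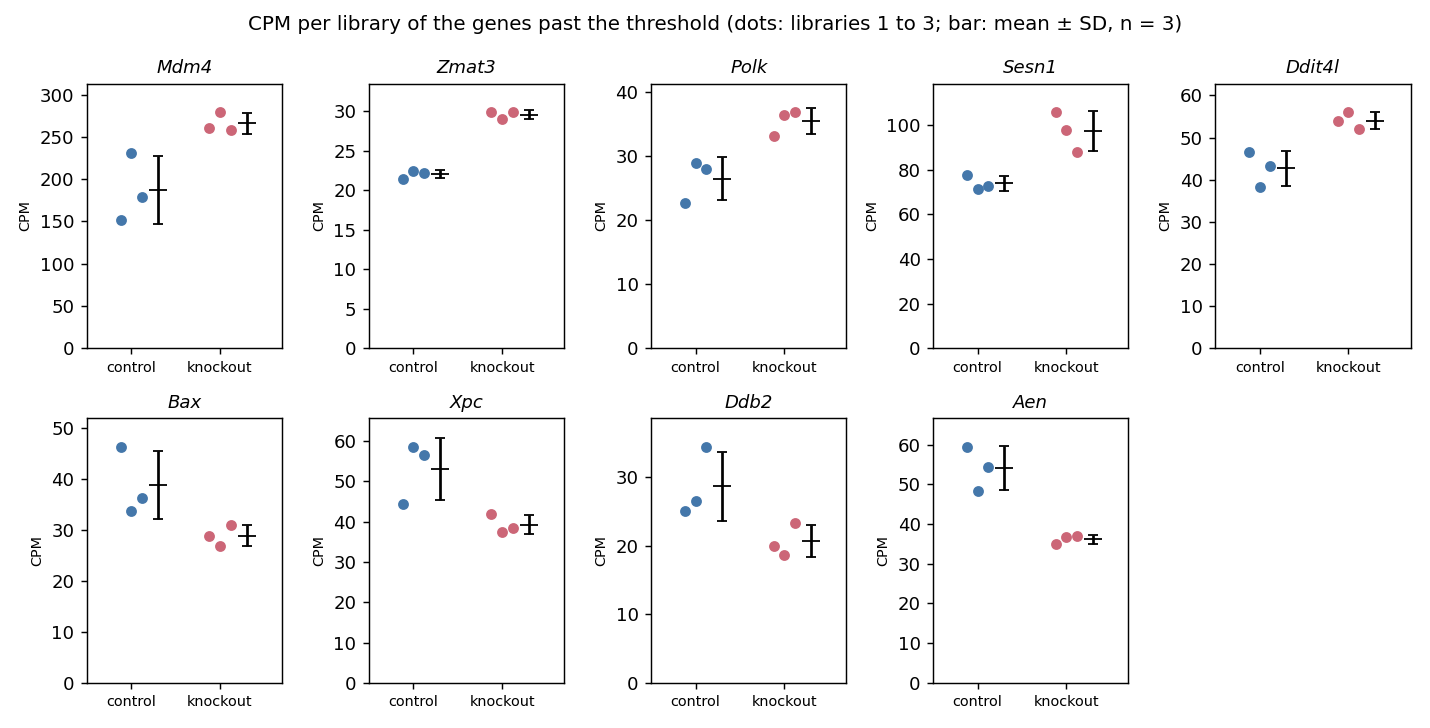
CPM in each library (y axis, from 0) for the 9 genes past the edgeR threshold, with controls in blue, knockouts in red and bars for mean ± SD (n = 3). In all 9 panels the knockout libraries lie wholly above or wholly below the controls, and the widest control spread is that of Mdm4, from 151 to 231 CPM.

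Of the 4 DNA repair and nucleotide supply genes, 2 fell, 1 rose and 1 did not pass, where 13.9% of all genes were lower and 11.1% higher. With 4 genes, these shares were not compared. Xpc and Ddb2 encode the damage sensors that open global nucleotide excision repair. Xpc was at 44.4, 58.6 and 56.6 CPM in controls and 41.9, 37.5 and 38.4 CPM in knockouts, and fell 1.35-fold (log2 fold change -0.44 with SE 0.121, edgeR adjusted p = 0.0297). Among fits with 1 library left out, Xpc passed without control library 1 and in none of the other 5 (edgeR adjusted p = 0.0594 to 0.123). Ddb2, which works as a substrate receptor of the CRL4 ligase as DCAF2 does, was at 25.1, 26.5 and 34.4 CPM in controls and 20.03, 18.7 and 23.3 CPM in knockouts, and fell 1.39-fold (log2 fold change -0.47 with SE 0.149, edgeR adjusted p = 0.0471). Without control library 3, its highest control, it was at -0.32 (edgeR adjusted p = 0.167), it missed without any 1 knockout library (0.065 to 0.171), and it missed by limma-voom (0.0539). Both had every knockout library below every control, by narrow gaps between the nearest libraries. Polk, a polymerase that copies past damaged bases, was at 22.7, 28.8 and 27.9 CPM in controls and 33.0, 36.5 and 36.9 CPM in knockouts, and rose 1.34-fold (log2 fold change 0.42 with SE 0.118, edgeR adjusted p = 0.0304). It did not pass without control library 3 or any 1 knockout library (edgeR adjusted p = 0.0665 to 0.114), nor with total-count scaling (0.051). Rrm2b, the p53-inducible subunit of ribonucleotide reductase, was at 19.5, 26.0 and 21.8 CPM in controls and 26.7, 25.5 and 29.5 CPM in knockouts, overlapping through control library 2 (log2 fold change 0.28, edgeR adjusted p = 0.146; 0.39 and 0.0431 without that library). The metabolic enzyme genes Ak1, an adenylate kinase, and Dcxr, a xylulose reductase, had 0.14 and -0.12 with 95% intervals of -0.55 to 0.83 and -0.98 to 0.75, and neither passed.

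How many of the 9 genes passed depended on single libraries. With any 1 library left out, none of the 9 changed sign, and Aen passed in all 6 such fits. All 9 passed without control library 1 and 7 without control library 2. In the fit without control library 2, Rrm2b also passed as higher, and 29.4% of all genes were called. Only Aen passed among the 9 without control library 3, knockout library 1 or knockout library 2, and Aen and Sesn1 without knockout library 3. Of all genes, 12.2%, 9.83%, 9.29% and 13.1% were called in those 4 fits. Without control library 1, which stood apart in its markers, 6 of the 30 genes were higher and 7 lower, where 36.1% of all genes were called. The genes added were Sesn2, Mdm2, Ppm1d and Trp53inp1.

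**Figure D5:**
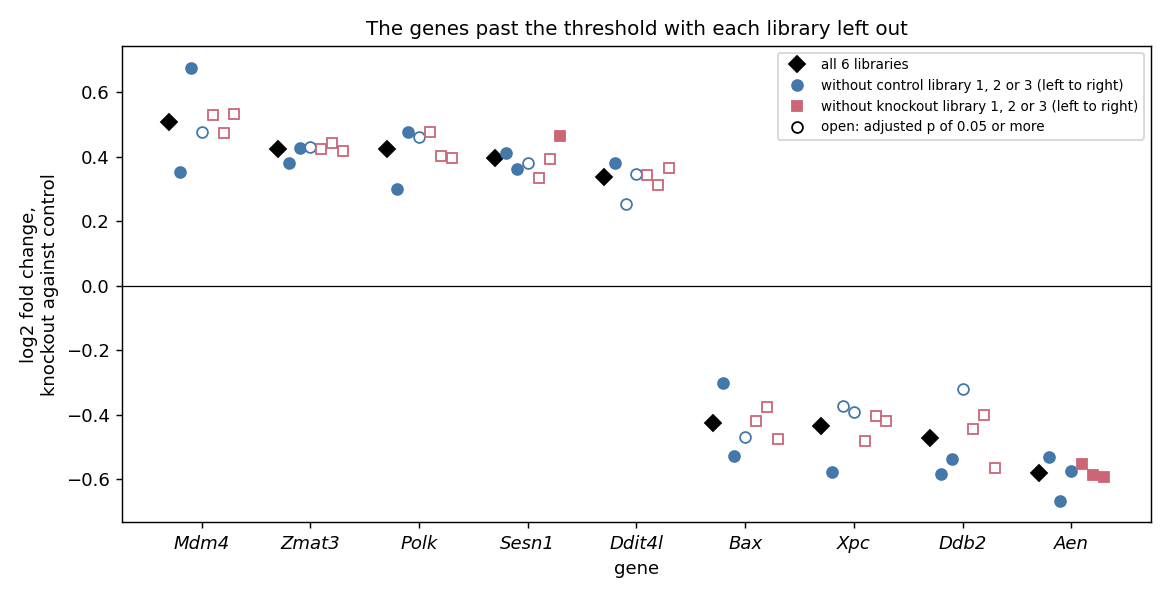
Log2 fold change, knockout against control (y axis), of the 9 genes past the threshold, with all 6 libraries (diamonds) and with each control (circles) or knockout library (squares) left out; open symbols did not pass. The symbols of each gene stay on 1 side of 0, and those of Aen are filled throughout.

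Scaling libraries to germ-cell transcripts moves all genes by nearly the same amount. It therefore cannot test a gene's place against the median of all genes, only its place against the germ-cell genes. When library sizes were taken from the pan-germ-cell genes, the median of all genes moved up by 1.47 on the log2 scale and all 30 tested p53 pathway genes were higher, as were 13356 of 14424 genes. The 4 genes that fell above were higher here, which a shift of all genes by that much brings with it, Aen by 0.87, Bax and Ddb2 by 1.005 each, and Xpc by 1.06. Set against the median of all genes under this scaling, Aen was at -0.62, Bax and Ddb2 at -0.49 each and Xpc at -0.43, and Mdm4 was at 0.52. The median of the 30 genes was 1.46, beside 1.49 for all genes. Aen, Bax, Xpc and Ddb2 were thus higher against the germ-cell genes. Their lower place against the median gene repeats the main comparison.

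A further 66 genes of the p53 pathway, upstream kinases, cofactors and other targets, were found in the table and 64 were tested. By edgeR, 4 were higher and 13 lower, 26.6% in all beside the 25% of all genes, with a median log2 fold change of -0.04. Cdkn2a, which encodes the INK4A inhibitor and ARF, the protein that holds MDM2 off p53, fell furthest, 3.96-fold, from 16.4 ± 1.25 to 4.14 ± 0.505 CPM (edgeR adjusted p = 0.000219); gene counts do not separate its products. Adgrb1, an adhesion receptor gene, fell 3.09-fold and the cyclin D1 gene Ccnd1 2.47-fold, from 66.4 ± 11.1 to 26.9 ± 2.70 CPM. Gtse1, whose product restrains p53 in G2, fell 1.79-fold, Sco2, of respiratory chain assembly, 1.76-fold, and Wrap53, the antisense neighbour of Trp53, from 26.5 ± 0.994 to 17.7 ± 0.584 CPM (SD, n = 3 each). Strand use in the counting is not given, so reads shared by Wrap53 and Trp53 cannot be told apart.

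The higher genes of this wider list included Pml, Fdxr and Bcl2. Pml, which forms nuclear bodies that modify p53, rose from 47.2 ± 1.40 to 70.0 ± 1.84 CPM (log2 fold change 0.57, edgeR adjusted p = 0.00285). The survival gene Bcl2 rose 1.35-fold (edgeR adjusted p = 0.0406). Fdxr, a p53-induced mitochondrial reductase gene, stood at the threshold (1.48-fold, edgeR adjusted p = 0.04996, with control library 1 at 137.5 CPM beside 82.1 and 89.9 CPM) and did not pass without control library 2 or 3 or any 1 knockout library. Bcl2 passed only without control library 1 among the 6 fits that left out a library (edgeR adjusted p = 0.0576 to 0.161 in the others), and Sco2 only without control library 2 (0.0783 to 0.135). With the length trend removed, Bcl2 was at 0.14 (adjusted p = 0.518). The damage kinases did not pass: Atm was at 56.2, 172 and 113 CPM in controls and 93.7, 93.0 and 100 CPM in knockouts (log2 fold change -0.25, edgeR adjusted p = 0.593; -0.60 and 0.0079 without control library 1, and 0.16 without control library 2), and Chek2 was at -0.19 (adjusted p = 0.348). Cdkn1a, the best known p53 target, averaged 6.12 ± 0.203 CPM in controls, below every knockout library (8.38 ± 1.21 CPM), short of the threshold (log2 fold change 0.45, edgeR adjusted p = 0.0821).

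The p53 pathway genes varied less between knockout than between control libraries, as did genes at large. The median coefficient of variation over the 30 genes was 13.3% in controls and 7.72% in knockouts, beside 14% and 7.2% over all tested genes. It was larger in controls for 20 of the 30 genes, beside 73.4% of all genes. Control library 1 was the highest control for 14 of the 30 genes and the lowest for 11.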

How the data were processed

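The authors deposited 1 table that pairs a count with an FPKM value for every gene in each library. StringTie 1.3.1 and RSEM appear in the submitters' processing notes, with no roles given. Aligner, build, annotation and strand use: not given in the sources used here. The deposited counts are whole numbers and were treated as estimated counts, rounded by the authors, because a few genes in every library (3 to 21) pair a count of 0 with a positive FPKM. The FPKM values, scaled by the authors to length and library size, served only to compare levels between genes and, with the counts, to give gene lengths.

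Symbols were matched for 22219 of 22274 IDs. The edgeR filter filterByExpr (minimum count 10) left 14424 genes and removed 0.063% of counts. After TMM scaling, genotype was tested over all genes with edgeR 4.0.16 in R 4.3.3 (glmQLFit, glmQLFTest), without covariates and with Benjamini-Hochberg adjustment. An SE is the log2 fold change divided by the root of F. The 31 genes and all lists were chosen with earlier results of these data known. Named genes were all 31, Dtl, Cdkn1a, Atm, Chek2, Cdkn2a and up to 6 higher and 6 lower genes of the wider list, by size among those past the threshold. Of the 68 genes in that list, 66 were found. A gene that this rule names is not reported here. Further marker lists were undifferentiated spermatogonia (7 of 15 lower, 2 higher), differentiating spermatogonia and meiotic entry (12 of 12 tested lower), peritubular myoid (1 of 8 higher), macrophage and leukocyte (2 of 11 higher), endothelial (5 of 8 higher), erythroid (0 of 5) and epididymis and rete testis (0 of 6).

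On simulated counts of 14296 genes in 3 against 3 libraries, 16.7% of 96 log2 changes of 0.5 and 74% of 100 changes of 1 were recovered, with far fewer changed genes than the deposited data hold, and 7 of 97 calls were of unchanged genes. Alternatives were DESeq2 1.42.0, limma-voom (limma 3.58.1), other scalings (RLE, upper-quartile, total-count, pan-germ-cell genes), no filter, a filter at 1 CPM in 3 libraries, the replicate number as a block, removal of a trend on gene length (lowess, span 0.3), and each library left out.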

Additional observations from a re-analysis of the deposited data

How the results depend on the processing

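Of the p53 pathway genes, 5 higher became 3 with total-count and 30 with pan-germ-cell scaling, and 0 to 6 with a library left out. The 4 lower became 0 with pan-germ-cell scaling, 2 by limma-voom and 1 to 7 with a library left out. Of the wider list, 4 higher became 2 with upper-quartile or total-count scaling, 59 with pan-germ-cell scaling, 8 with the length trend removed and 1 to 10 with a library left out, and 13 lower became 0 with pan-germ-cell scaling and 5 to 19 with a library left out. Of all genes, 1599 higher and 2008 lower became 13356 and 84 with pan-germ-cell scaling, and 452 to 2392 and 903 to 2863 with a library left out. They became 2015 and 2839 with the length trend removed, and 1109 and 2424 with total-count scaling. With upper-quartile scaling they became 1370 and 2088, and by limma-voom 1664 and 1934. The median over the 30 genes was -0.066 with total-count scaling, 1.458 with pan-germ-cell scaling, 0.087 without the length trend and -0.027 to 0.12 with a library left out. Over all genes it was -0.038 with total-count scaling, 1.494 with pan-germ-cell scaling and 0.011 without the length trend. With a library left out, the median over all genes was 0.005 to 0.035. The 0.12 came without control library 1, where all genes were at 0.021. The cause of these shifts was not tested.

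Pan-germ-cell scaling moved the median of all genes up by 1.466, so a gene below 0 by less than its own shift had to turn sign and the turn says nothing about that gene. It did so for Trp53 (1.424), Mdm2 (1.252), Ppm1d (1.222), Btg2 (1.323), Plk3 (1.43), Bax and Ddb2 (1.005), Perp (1.081), Phlda3 (1.36), Trp53inp1 (1.329), Aen (0.871), Ei24 (1.417), Tnfrsf10b (1.381), Xpc (1.061), Dcxr (1.301), Dtl (1.185), Atm (1.309), Chek2 (1.283), Ccnd1 (0.19), Gtse1 (0.639), Sco2 (0.603) and Wrap53 (0.88). Set against the median of all genes under that scaling, each of these was below 0, from -1.304 for Ccnd1 to -0.065 for Plk3. Because the scaling moves all genes by nearly the same amount, these values repeat the main comparison and are no further check. Without the length trend it turned for Trp53 (0.059), Ccng1 (-0.049), Plk3 (0.004), Phlda3 (0.04) and Dcxr (0.114). Trp53 was at 0.003 by limma-voom, and Ccng1 at -0.001 with RLE scaling and by DESeq2, -0.01 with upper-quartile and -0.049 with total-count scaling. With a library left out the sign turned in genes that had not passed: Trp53 (-0.142 to 0.112), Ccng1 (-0.028 to 0.061), Plk3 (-0.216 to 0.114), Phlda3 (-0.183 to 0.07), Fas (-0.167 to 0.633), Ak1 (-0.11 to 0.532), Dcxr (-0.451 to 0.176) and Atm (-0.599 to 0.159).

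Same-numbered libraries did not deviate together (r = -0.072, -0.078 and 0.07), beside -0.224 to 0.225 for libraries of different number. These values show no pairing by number, but so few libraries cannot exclude one. With the replicate number as a block, 4 of the p53 pathway genes were higher (Mdm4, Sesn1, Zmat3 and Polk) and 2 lower (Aen and Ddb2), so Ddit4l, Bax and Xpc did not pass (adjusted p = 0.0778, 0.0589 and 0.0601 by edgeR), 2 of the wider list were higher and 7 lower, and Trp53 was at 0.002. Fewer genes were called at large with this block, 19.6% of all genes beside 25% without it. With 3 libraries a group, genes that did not pass are not shown to be unchanged.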
